A study of Mus musculus with 24 samples.

Results

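Serpins are a family of protease inhibitors, and the 8 genes followed here were taken by name from the table of 11140 genes measured in mouse splenic B cell lymphomas: Serpinb6b, Serpinb6a, Serpinb9, Serpinb1a, Serpina3g, Serpina3f, Serpinf1 and Serping1. Of these 8, 7 have a row, and all 7 passed the filter on low counts and were tested. Serping1, which encodes the inhibitor of the first complement proteases, was not analysed here. The table holds 11 serpin genes in all, so 4 others (Serpinb8, Serpinc1, Serpine2 and Serpini1) are given beside the 7. A serpin offers a protease an exposed loop as bait, and most serpins trap the protease in a stable complex once it cuts that loop. Members of clade B stay inside the cell, where Serpinb9 and Serpinb6b are known in the mouse as inhibitors of granzyme B and granzyme A, the proteases with which killer lymphocytes trigger the death of their targets. Members of clades A and F are classically secreted, although mouse Serpina3g acts inside cells on lysosomal cathepsins.

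The lymphomas came from spleens of C57BL/6 mice. Of these, 12 arose in mice labelled Bcl6Tg/+ (T cell sufficient) and 11 in mice labelled Bcl6Tg/+CD3Epsilon-/- (T cell deficient), so every animal carried 1 copy of a transgene for Bcl6, a repressor that holds B cells in the germinal centre programme, and the second group also lacked CD3 epsilon, a T cell receptor subunit without which T cells do not develop. The title of the series poses the question of immune surveillance by T cells, which the comparison of the 2 groups addresses. The sources used here do not state what drives the transgene, how old the mice were, how the B cells were purified or whether each library came from its own animal, so p-values measure the spread between these samples. Libraries were sequenced in 2 runs, with 7 sufficient and 5 deficient libraries in run 1 and 5 and 6 in run 2, and held 7.58 to 30.6 M counts each (M, 1000000).

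The purification can be checked on marker genes. All 11 listed B cell markers have a row, and their summed level ran from 6206 to 13970 CPM (counts per 1000000 in the library, scaled between libraries by TMM) in sufficient and from 4083 to 9883 CPM in deficient lymphomas. Transcripts listed as markers of other cell types were also measured, which does not show that those cells were present. Of 19 monocyte and macrophage markers 18 have a row, with sums of 277 to 2863 CPM in sufficient libraries (median 735) and 173 to 737 CPM in deficient libraries (median 312). By the edgeR rule given below, 4 of 18 tested markers in that list fell and 0 rose, led by Ly6c2 (25.7-fold lower), Ccr2 and Itgam. Of all genes tested, 11.7% fell and 10.6% rose by that rule, the shares to set beside the marker counts here. Of 12 markers of natural killer and cytotoxic cells 5 have a row, and their sums were 1.90 to 40.8 CPM and 2.78 to 63.9 CPM. Of these 5, all tested, 1 rose and 0 fell, Klrb1c (4.53-fold higher, means 0.497 and 2.71 CPM). The defining genes Ncr1, Nkg7 and Klrd1 have no row. For T cell markers 9 of 15 have a row (119 to 624 CPM and 124 to 1344 CPM), with none for Cd3d and Cd8a. Of 9 tested, 1 rose and 0 fell, Zap70 (12.05-fold higher, means 16.3 and 174 CPM). Every gene in the table is above 1 CPM in 7 or more libraries, so a missing row does not show that a transcript was absent. Neutrophil markers (6 of 12 with a row, none for Mpo and Ly6g) summed to 0.925 to 87.9 CPM in sufficient and 2.01 to 178 CPM in deficient libraries. Stromal and endothelial markers (6 of 15 with a row) summed to 34.5 to 267 CPM and 28.3 to 165 CPM. Of 5 tested, 2 fell and 0 rose, Col1a1 (31.0-fold lower, from a mean of 7.49 CPM) and Kdr (2.99-fold lower). Dendritic cell markers (4 of 9 with a row) summed to 62.8 to 264 CPM and 61.2 to 331 CPM. Of 4 tested, 2 rose and 0 fell, Xcr1 (5.24-fold higher) and Flt3 (2.76-fold higher). Several clade A and clade B serpins are also expressed by myeloid cells, and the part of such cells in the differences below was not tested. In bulk samples fewer cells of a type and less RNA per cell cannot be told apart. Transcripts that differ between the sexes were not balanced between the groups. Xist was above 10 CPM, before TMM scaling, in deficient libraries 2, 5 and 10 and in sufficient libraries 1, 3 and 8 to 12. No term for sex was fitted, and its part in the differences was not tested.

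Lymphomas that arose without T cells had lower levels of most of these protease inhibitors. Of the 7 members, 5 fell (Serpinb6b, Serpinb9, Serpinb1a, Serpina3g and Serpina3f), 1 rose (Serpinf1) and 1 did not pass the test (Serpinb6a). A gene was called when its p from the quasi-likelihood test of edgeR, fitted with run as a covariate, was under 0.05 after Benjamini-Hochberg adjustment. By that rule 22.2% of all 11020 genes tested were called, 11.7% as lower and 10.6% as higher in deficient lymphomas. The median log2 fold change of the 7 members was -2.89, beside -0.01 for all genes tested. The members were chosen with earlier results of these data known. The count of calls and this median therefore describe the chosen genes and are no test of serpins as a family. For the 4 other serpins the median was 0.49, and edgeR called 0 of them. In no member were the groups free of overlap, as they were in 0.163% of all genes. DESeq2 called 6 of the 7 members (28.1% of all genes, 14.4% as lower and 13.7% as higher), and limma-voom called 3 (22.8% of all genes, 11.7% as lower and 11.2% as higher). Summed over the 7 members and divided by exon length, the level ran from 27.3 to 242 CPM per kb in sufficient lymphomas (median 103) and from 7.63 to 34.5 CPM per kb in deficient ones (median 13.3).

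**Figure D1:**
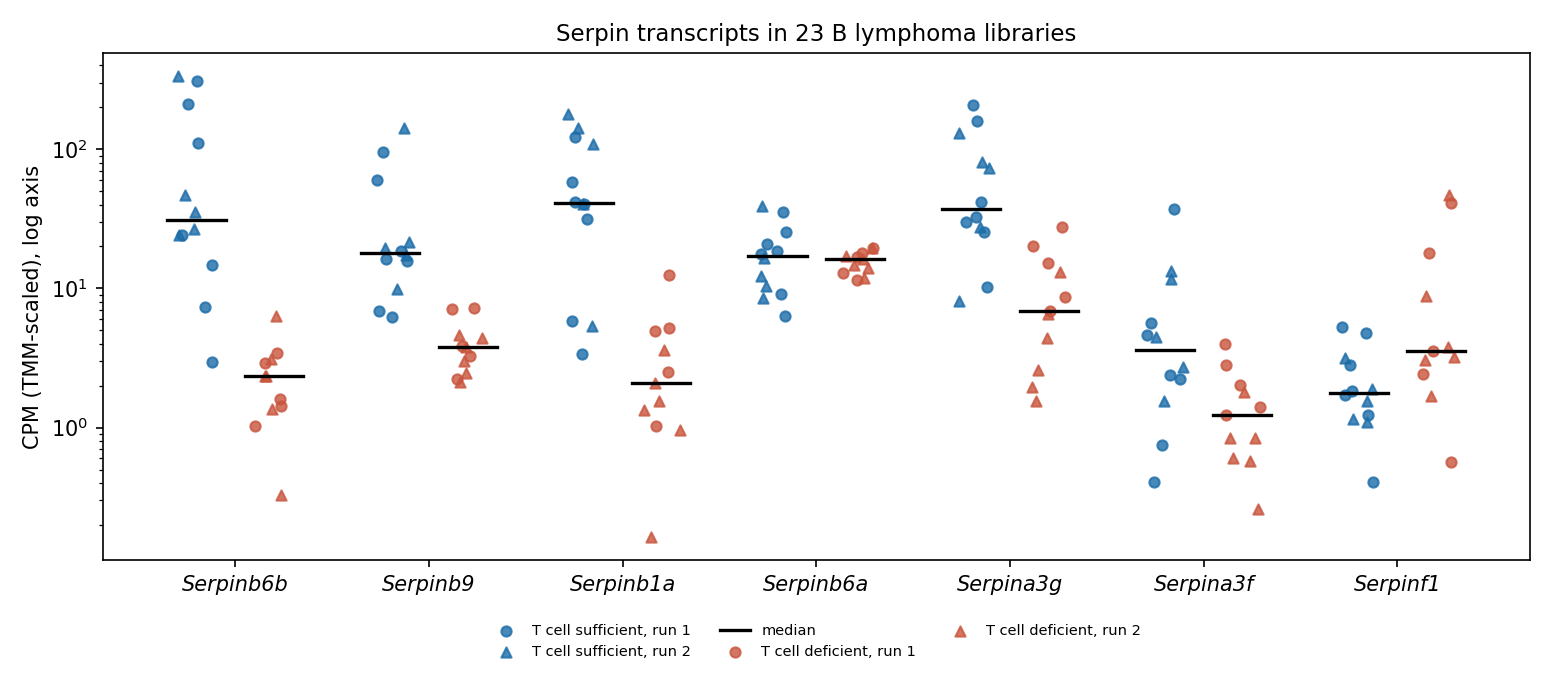
Level of each serpin (TMM-scaled CPM, log axis) in the 12 T cell sufficient (blue) and 11 T cell deficient (red) lymphomas, with circles for run 1, triangles for run 2 and a bar at the group median. For Serpinb6b the medians are 31.0 and 2.33 CPM, for Serpinb6a 17.0 and 16.2 CPM, and for Serpinf1 1.77 and 3.55 CPM.

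Upstream sequences are shown for 4 members because they hold matches to 2 interferon-response motifs, and because 3 of these genes fell while Serpinb6a did not pass the test. The sequences are RefSeq windows on GRCm38.p6, from 250 bases before to 50 bases after an annotated transcription start, printed 5′ to 3′ on the gene's strand, and 6 of the 7 members have at least 1 such window. Capitals mark matches on either strand to TTCNNNGAA, the palindromic element bound by STAT factors (GAS), and to the core of the interferon-stimulated response element (ISRE), which is GAAA, 2 bases of any kind and GAAA again. Of all 32851 windows, 8.30% hold the first and 3.44% the second. Serpina3g is at chr12:104235897-104236196 and Serpina3f at chr12:104214294-104214593, both on the plus strand, and Serpinb9 is at chr13:33004291-33004590 on the plus strand. Serpinb6a is at chr13:34002745-34003044 on the minus strand.
Serpina3g: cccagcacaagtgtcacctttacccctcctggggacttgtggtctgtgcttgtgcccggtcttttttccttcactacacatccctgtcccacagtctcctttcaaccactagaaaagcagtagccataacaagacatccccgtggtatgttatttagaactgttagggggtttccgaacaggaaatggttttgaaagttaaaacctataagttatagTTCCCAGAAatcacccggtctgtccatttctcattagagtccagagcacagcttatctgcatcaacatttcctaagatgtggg
Serpina3f: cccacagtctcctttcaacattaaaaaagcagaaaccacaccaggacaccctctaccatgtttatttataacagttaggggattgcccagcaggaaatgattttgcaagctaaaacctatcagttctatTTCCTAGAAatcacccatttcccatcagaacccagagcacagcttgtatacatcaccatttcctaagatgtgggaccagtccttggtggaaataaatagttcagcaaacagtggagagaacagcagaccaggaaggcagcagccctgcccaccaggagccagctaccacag
Serpinb9: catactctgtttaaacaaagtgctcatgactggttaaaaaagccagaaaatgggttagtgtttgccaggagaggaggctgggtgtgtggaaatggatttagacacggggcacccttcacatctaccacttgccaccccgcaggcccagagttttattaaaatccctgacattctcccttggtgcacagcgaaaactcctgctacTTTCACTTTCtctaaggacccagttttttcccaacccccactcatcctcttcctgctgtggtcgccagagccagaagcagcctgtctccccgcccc
Serpinb6a: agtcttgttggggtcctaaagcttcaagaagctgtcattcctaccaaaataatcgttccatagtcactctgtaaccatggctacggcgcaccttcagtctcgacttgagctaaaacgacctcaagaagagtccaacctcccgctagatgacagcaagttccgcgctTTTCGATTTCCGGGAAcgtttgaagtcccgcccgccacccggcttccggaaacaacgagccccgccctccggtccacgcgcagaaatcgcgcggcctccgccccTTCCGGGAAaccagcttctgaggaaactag

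The Serpina3g window holds 1 GAS match, which begins 33 bases before the annotated start, and the printed Serpina3f window holds 1, which begins 121 bases before its start. These 2 windows align over 214 columns with 79.0% identity. The Serpinb9 window holds 1 ISRE core match on the opposite strand. The printed Serpinb6a window holds 2 GAS matches and 1 ISRE core match, of which the first GAS match and the ISRE core overlap, while a second Serpinb6a window, at another annotated start, holds neither motif. The windows of Serpinb6b and Serpinf1 hold neither motif. A match describes the letters in the window and says nothing of whether a factor binds there.

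Of the granzyme inhibitors, Serpinb6b and Serpinb9 were both lower without T cells. The genes lie 24.2 kb apart on chromosome 13 on the plus strand (GRCm38, GENCODE M21), Serpinb6b at 32965209 to 32979067 and Serpinb9 at 33003250 to 33017957. Serpinb6b ran from 2.94 to 335 CPM in sufficient lymphomas with a median of 31.0 CPM, and from 0.327 to 6.31 CPM in deficient lymphomas with a median of 2.33 CPM. All sufficient libraries but library 5 lay above the highest deficient one, so the groups overlapped through that library alone. The fitted difference was a log2 fold change of -5.36 ± 0.79 (SE), or 41.0-fold lower (edgeR adjusted p = 0.000217). Without T cell sufficient library 11 it was -4.70 (adjusted p = 0.000607), and with limma-voom it did not pass the threshold (-4.35, adjusted p = 0.054).

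Serpinb9, the inhibitor of granzyme B, was 8.92-fold lower without T cells. In sufficient lymphomas it ran from 6.21 to 142 CPM with a median of 18.1 CPM (mean 35.8 ± 42.3, SD, n = 12). In deficient lymphomas it ran from 2.12 to 7.27 CPM with a median of 3.77 CPM (mean 4.02 ± 1.78, SD, n = 11). Of the sufficient libraries, 10 lay above every deficient one, and libraries 2 and 5 (6.21 and 6.87 CPM) lay within the deficient range. The log2 fold change was -3.16 ± 0.52 (SE; edgeR adjusted p = 0.000545), and -2.54 without sufficient library 11 (adjusted p = 0.000737). Serpinb9 also passed with limma-voom (-2.63, adjusted p = 0.0130).

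Libraries 11, 4 and 1 of the sufficient group were among the 4 highest for both granzyme inhibitors. They held the highest Serpinb9 values (142, 95.8 and 60.4 CPM), and the next library had 21.7 CPM. The highest Serpinb6b values stood in sufficient libraries 11, 4, 3 and 1 (335, 309, 213 and 112 CPM), and the next had 46.7 CPM. Library 3 was thus high for Serpinb6b but not for Serpinb9 (18.7 CPM). The summed monocyte and macrophage markers were 2863 CPM in library 11, 510 CPM in library 4, 786 CPM in library 3 and 1019 CPM in library 1. Library 11, the highest for both serpins, had the highest marker sum of its group, and library 4, the second highest for both, had a sum below the group median. Whether these levels are linked was not tested. For 2 of these libraries the column is in doubt. The column of sufficient lymphoma 1 is the deepest and may hold both of that sample's libraries, and the column of sufficient lymphoma 4 carries another suffix than its label. Without both, the log2 fold change was -4.92 for Serpinb6b (adjusted p = 0.000548) and -2.60 for Serpinb9 (adjusted p = 0.00208). Sufficient library 11 is also 1 of 3, with 9 and 10, that held transcripts of both Xist and Y-linked genes. With those 3 left out, the log2 fold change was -5.05 for Serpinb6b (edgeR adjusted p = 0.00172) and -2.68 for Serpinb9 (edgeR adjusted p = 0.00232).

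Serpinb1a, an inhibitor of the neutrophil proteases elastase, cathepsin G and proteinase 3, lies 114 kb from Serpinb6b on chromosome 13 (32842092 to 32851185, minus strand) and was also lower. It ran from 3.39 to 180 CPM in sufficient lymphomas with a median of 41.1 CPM, and from 0.164 to 12.4 CPM in deficient lymphomas with a median of 2.09 CPM. The lowest value, in deficient library 5, rests on 2 counts. Above the highest deficient value lay 9 sufficient libraries, and libraries 4, 5 and 11 (3.39, 5.88 and 5.33 CPM) lay below it. The fall was 20.4-fold (log2 fold change -4.35 ± 0.74 SE, edgeR adjusted p = 0.000669), and the limma-voom adjusted p was 0.0416. The libraries that led for Serpinb6b and Serpinb9, 11 and 4, were thus among the 3 lowest for Serpinb1a. The highest Serpinb1a values were 180, 142, 122 and 110 CPM, in libraries 8, 10, 3 and 12. Serpinb9 in those libraries was at 17.5 to 21.7 CPM, beside a group median of 18.1 CPM. Serpinb6b was at 46.7, 26.6, 213 and 35.4 CPM in the same order, so library 3 was high for both Serpinb1a and Serpinb6b.

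**Figure D2:**
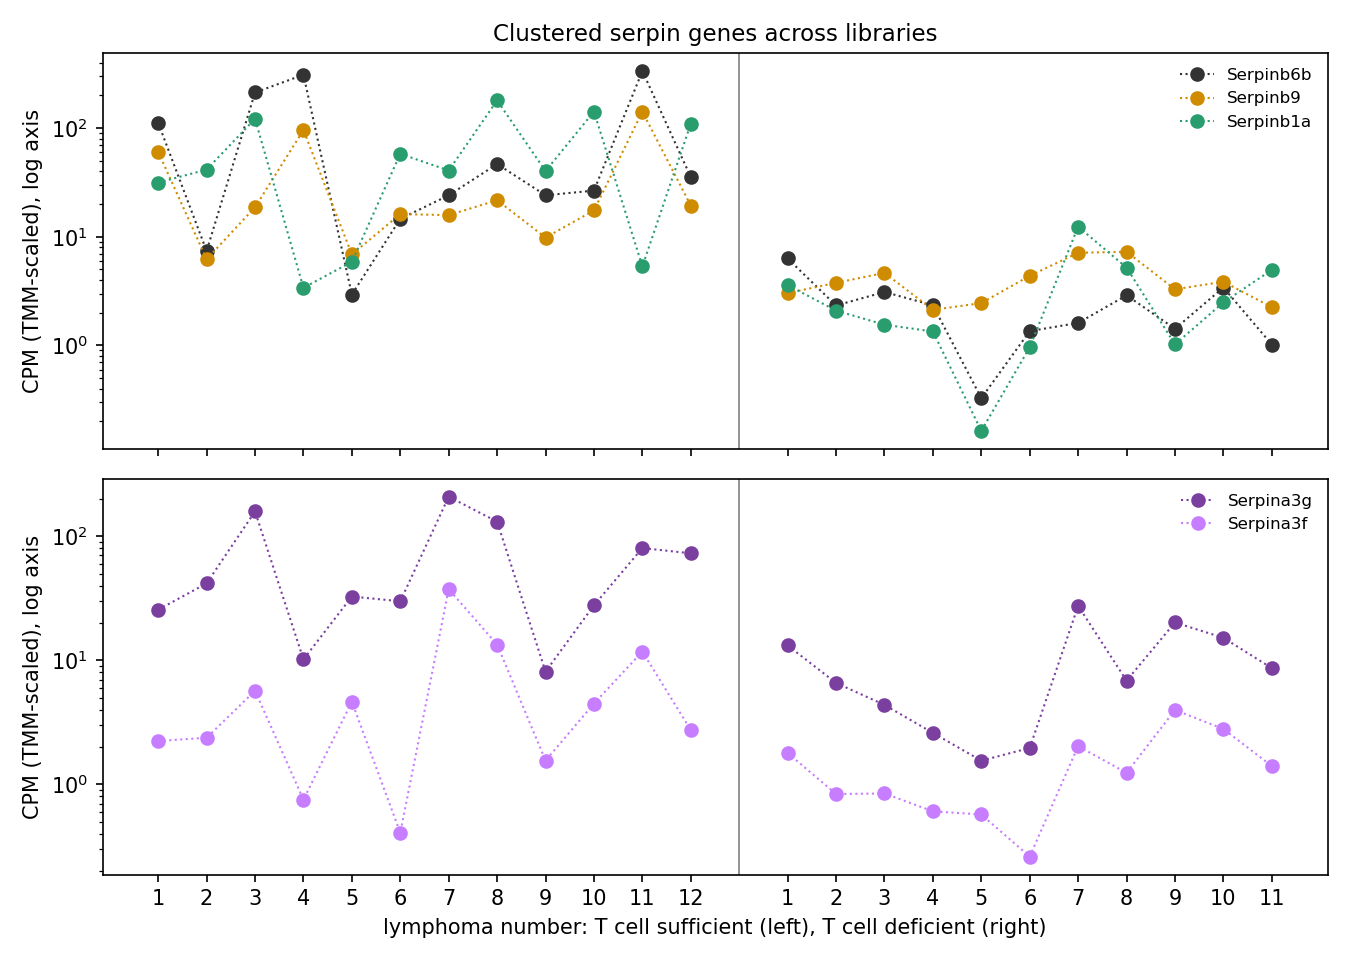
Level (TMM-scaled CPM, log axis) of the chromosome 13 neighbours Serpinb6b, Serpinb9 and Serpinb1a (top) and of the chromosome 12 neighbours Serpina3g and Serpina3f (bottom) in each lymphoma, by its number, with dotted lines only to guide the eye. In T cell sufficient lymphomas 4 and 11 Serpinb6b is at 309 and 335 CPM while Serpinb1a is at 3.39 and 5.33 CPM.

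Serpinb6a, a broad intracellular inhibitor that includes cathepsin G among its targets, did not pass the test. It lies further along chromosome 13 (33917918 to 34002794, minus strand). It ran from 6.34 to 38.9 CPM with a median of 17.0 CPM in sufficient and from 11.5 to 19.6 CPM with a median of 16.2 CPM in deficient lymphomas. The deficient libraries all lay inside the sufficient range, and 4 sufficient libraries lay above and 4 below all of them. The log2 fold change was -0.22 ± 0.26 (SE; edgeR adjusted p = 0.571). Without sufficient library 11 it was 0.025, with the other sign. The SD of log2 CPM was 0.82 in sufficient and 0.27 in deficient lymphomas. Its gene overlaps Nqo2 and Ripk1 on the other strand, and without a stated strand setting reads of overlapping stretches cannot be assigned with certainty.

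Serpina3g, known as Spi2A and an inhibitor of cathepsin B, was 7.43-fold lower without T cells. The gene spans 104236245 to 104241939 on chromosome 12, plus strand. In sufficient lymphomas it ran from 8.11 to 208 CPM with a median of 37.2 CPM, and in deficient lymphomas from 1.55 to 27.5 CPM with a median of 6.86 CPM. Of the sufficient libraries, 9 lay above every deficient library, and 6 deficient libraries lay below every sufficient one. The log2 fold change was -2.89 ± 0.56 (SE; edgeR adjusted p = 0.00156), and it passed with limma-voom (-2.22, adjusted p = 0.0192).

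Serpina3f, a paralogue 15.1 kb away at 104214544 to 104221129, was expressed at a lower level. It ran from 0.408 to 37.4 CPM with a median of 3.61 CPM in sufficient and from 0.262 to 3.98 CPM with a median of 1.24 CPM in deficient lymphomas. Of the sufficient libraries 6 lay above every deficient one, and the other 6 lay within the deficient range. The log2 fold change was -2.35 ± 0.62 (SE; edgeR adjusted p = 0.0108), or 5.09-fold lower. Without sufficient library 7 (37.4 CPM) the log2 fold change was -1.62 and did not pass (adjusted p = 0.0537). Limma-voom did not call it either (-1.43, adjusted p = 0.135). Sufficient library 7 was also the highest for Serpina3g (208 CPM). Of the 50-base stretches in the transcripts of Serpina3g, 15.5% also occur in transcripts of another gene, most often Serpina3h, and of those in Serpina3f 10.6% do, most often with Serpina3g, so a part of their reads may be split between copies. For the other 5 members this share was 0 to 2.92%.

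Serpinf1 was the only member called higher. It encodes pigment epithelium-derived factor, a secreted serpin known for restraining blood vessel growth that does not inhibit proteases, and spans 75409769 to 75422701 on chromosome 11, minus strand. It ran from 0.406 to 5.29 CPM with a median of 1.77 CPM in sufficient and from 0.563 to 47.0 CPM with a median of 3.55 CPM in deficient lymphomas. Deficient libraries 6, 9 and 7 were the high ones (47.0, 41.3 and 17.98 CPM), library 5 followed with 8.75 CPM, and the other 7 lay within the sufficient range. The log2 fold change was 2.49 ± 0.65 (SE; edgeR adjusted p = 0.00954), or 5.64-fold. Without deficient library 6 it was 1.83 (adjusted p = 0.0216). In the same 3 deficient libraries the stromal and endothelial markers summed to 76.8, 111 and 71.4 CPM and the neutrophil markers to 2.01, 92.7 and 178 CPM, and their part was not tested. The call was lost when the 3 sufficient libraries with transcripts of both Xist and Y-linked genes were left out (2.28, adjusted p = 0.0556) and with limma-voom (1.46, adjusted p = 0.283). Nor did it pass in either run alone (adjusted p = 0.231 in run 1 and 0.0756 in run 2).

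The authors' deposited table, made with limma per the submitters' processing notes, gives log2 fold changes of -2.63 for Serpinb9, -2.22 for Serpina3g, -3.93 for Serpinb1a and -4.35 for Serpinb6b. The adjusted p-values in the authors' deposited table are 0.0105 for Serpinb9, 0.0266 for Serpina3g, 0.0326 for Serpinb1a and 0.04 for Serpinb6b. In the authors' deposited table Serpina3f (0.155), Serpinf1 (0.285) and Serpinb6a (0.99) are above 0.05. The 4 called there are also called by edgeR. The share of all genes under 0.05 in the deposited comparison is not given here, so those 4 calls stand without a background.

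Within each run the signs were the same for all 7 members. In run 2 alone, 5 of 7 members passed edgeR's adjusted threshold, where 12.3% of all genes did (6.61% as lower and 5.69% as higher), with log2 fold changes of -5.14 for Serpinb6b, -3.62 for Serpinb9, -5.87 for Serpinb1a, -3.66 for Serpina3g and -3.04 for Serpina3f. In run 1 alone no gene of the 11064 tested passed by edgeR, so 0 members did (0% of all genes), although 5 members and 1832 genes in all had an unadjusted p under 0.05. The run 1 log2 fold changes were -5.57 for Serpinb6b, -2.74 for Serpinb9, -3.06 for Serpinb1a, -2.22 for Serpina3g and -1.74 for Serpina3f. Serpinf1 was at 2.33 in run 1 and 2.67 in run 2. The difference between runs was tested as an interaction, and 0 of 7 members passed by edgeR, as did 0% of all genes. By DESeq2 0 members and 9 genes in all passed, and by limma-voom 0 of either. At an unadjusted p under 0.05 edgeR had 1 member among 723 genes, DESeq2 1 among 898 and limma-voom 0 among 662. By edgeR the 1 member was Serpinb1a, with an interaction of -2.82 ± 1.14 on the log2 scale (adjusted p = 0.758).

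**Figure D3:**
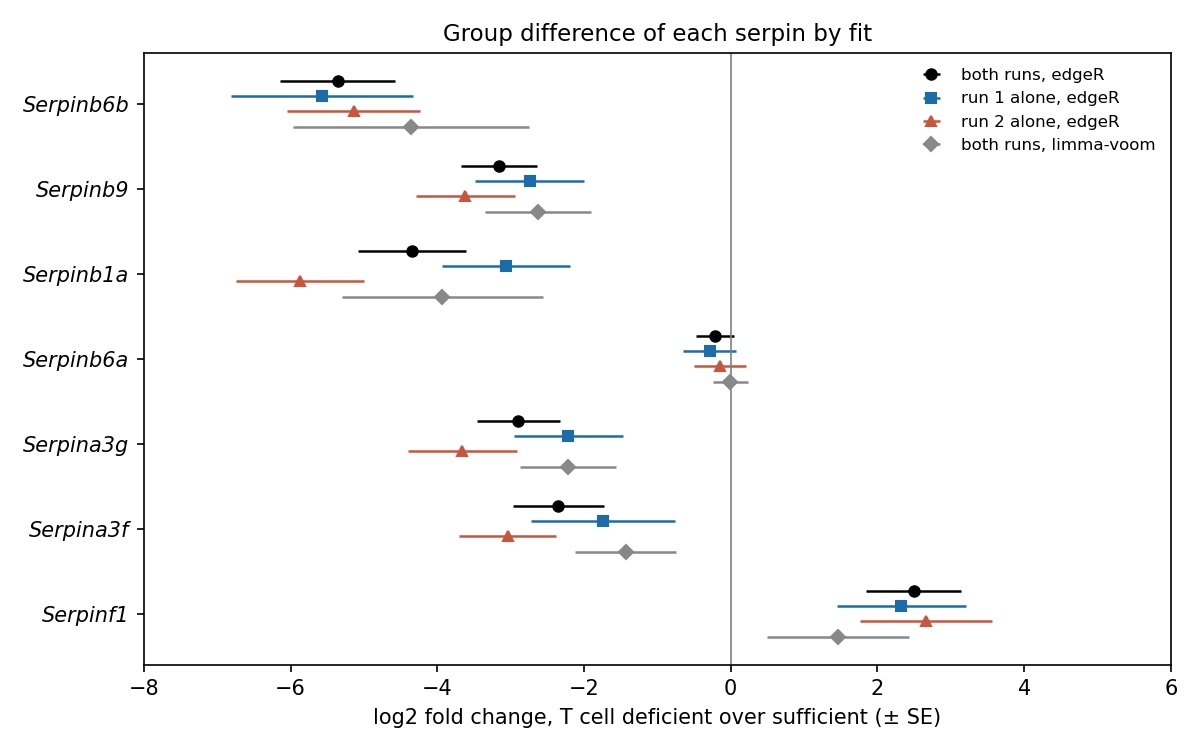
Log2 fold change of T cell deficient over sufficient lymphomas for each serpin, with bars of 1 SE, from edgeR on both runs (black), on run 1 (blue) and on run 2 (red) and from limma-voom on both runs (grey). For Serpinb6b the values run from -5.57 to -4.35, for Serpinb6a from -0.29 to -0.01 and for Serpinf1 from 1.46 to 2.67.

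Levels of different genes can be set side by side once divided by exon length. By the median in sufficient lymphomas, the order was Serpinb1a (17.8 CPM per kb), Serpina3g (17.7), Serpinb6b (13.7), Serpinb9 (5.17), Serpinb6a (3.14), Serpina3f (1.58) and Serpinf1 (0.750). In deficient lymphomas the order was Serpina3g (3.26 CPM per kb), Serpinb6a (2.998), Serpinf1 (1.51), Serpinb9 (1.08), Serpinb6b (1.03), Serpinb1a (0.909) and Serpina3f (0.541). Neighbours in both orders overlapped in their ranges over libraries, and no test was made between genes. The leading serpin per length also differed between lymphomas. Among sufficient libraries Serpinb1a led in 5 (numbers 6, 8, 9, 10 and 12), Serpinb6b in 4 (1, 3, 4 and 11) and Serpina3g in 3 (2, 5 and 7). In those 12 libraries the leader made up 39.7% to 77.4% of the summed level per length. Among deficient libraries Serpina3g led in 5, Serpinb6a in 3 and Serpinf1 in 3, and neither Serpinb6b nor Serpinb1a led in any.

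Spread among lymphomas of 1 group was wide for the called members. In sufficient libraries the SD of log2 CPM was 2.12 for Serpinb6b, 1.93 for Serpinb1a, 1.73 for Serpina3f, 1.48 for Serpina3g and 1.41 for Serpinb9. In deficient libraries it was 1.02, 1.47, 1.01, 1.35 and 0.59 in the same order. For Serpinf1 it was 0.94 in sufficient and 1.90 in deficient libraries.

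Likeness between genes was described by Spearman's rho over the 23 libraries, after the mean of each group and run was subtracted from log2 CPM. Libraries share depth, purity and scaling across genes, so these values carry no test. Among members the pairs most alike were the chromosome 12 neighbours Serpina3g and Serpina3f (rho 0.80) and the chromosome 13 neighbours Serpinb9 and Serpinb6b (0.80). Serpinb6b and Serpinb6a had a rho of 0.68. Serpinb1a, though in the same cluster, had a rho of -0.02 with Serpinb6b and -0.01 with Serpinb9, and 0.51 with Serpina3g.

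Over the 10350 genes ranked, Serpinb6b was most like Ctsh (rho 0.87), which encodes the cysteine protease cathepsin H, 4833439L19Rik (0.83) and Serpinb9. Serpinb9 was most like Abcb1b (0.81), a drug efflux pump, Serpinb6b and Cyb5 (0.78). Serpinb1a was most like Scml4 (0.78), 4632428C04Rik and Gm13157 (0.77). For Serpina3g the nearest were Capn2, a calpain protease, Gm15987 and Jkamp (0.84 each). For Serpina3f they were Clec4a1 (0.82), a lectin of myeloid cells, Timp2 (0.82), an inhibitor of matrix metalloproteases, and Leprot (0.80). Serpinb6a was nearest to Abcc5, Cnih4 and P2rx4 (all 0.82), and Serpinf1 to Map2k2, Ibtk and Mkrn2 (0.74 to 0.75).

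Of the 4 other serpins in the table, 0 passed edgeR's adjusted threshold. At an unadjusted p under 0.05 there was 1, Serpinb8, and DESeq2 called 1 and limma-voom 0. Serpinb8, an intracellular inhibitor of the convertase furin, ran from 0.773 to 48.4 CPM in sufficient lymphomas with a median of 1.48 CPM, and from 0.787 to 75.8 CPM in deficient lymphomas with a median of 24.6 CPM. Of the sufficient libraries only 5 and 3 exceeded 2 CPM (48.4 and 10.7 CPM), while 8 of the deficient libraries were above 21 CPM and libraries 6, 7 and 9 were at 0.787, 4.24 and 1.10 CPM. Its log2 fold change was 2.86 ± 1.06 (SE; edgeR adjusted p = 0.0563), and without sufficient library 5 it was 3.80 (adjusted p = 0.00131). It also passed without deficient library 6, 7 or 9 (adjusted p = 0.0436, 0.0378 and 0.0295) and with DESeq2 (2.93, adjusted p = 0.000734). In run 1 alone it was 0.83 (adjusted p = 0.74) and in run 2 alone 5.15 (adjusted p = 0.00779), with an interaction adjusted p of 0.758. Those 3 deficient libraries, low for Serpinb8, are the 3 that were highest for Serpinf1.

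Serpinc1, which encodes antithrombin, was highest in deficient library 6 (180 CPM) and otherwise ran from 2.25 to 46.2 CPM (log2 fold change 0.92 ± 0.60 SE, adjusted p = 0.277). Serpine2, a cell-surface inhibitor of thrombin and urokinase, had medians of 10.7 CPM in sufficient and 2.15 CPM in deficient lymphomas (-1.48 ± 0.79 SE, adjusted p = 0.183). In run 1 alone its log2 fold change was 0.063 (adjusted p = 0.979) and in run 2 alone -3.31, which passed (adjusted p = 0.0190), with an interaction adjusted p of 0.758. It had no counts in sufficient library 3. Serpini1, or neuroserpin, an inhibitor of tissue plasminogen activator, had medians of 10.9 and 9.20 CPM (0.07 ± 0.41 SE, adjusted p = 0.92).

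**Figure D4:**
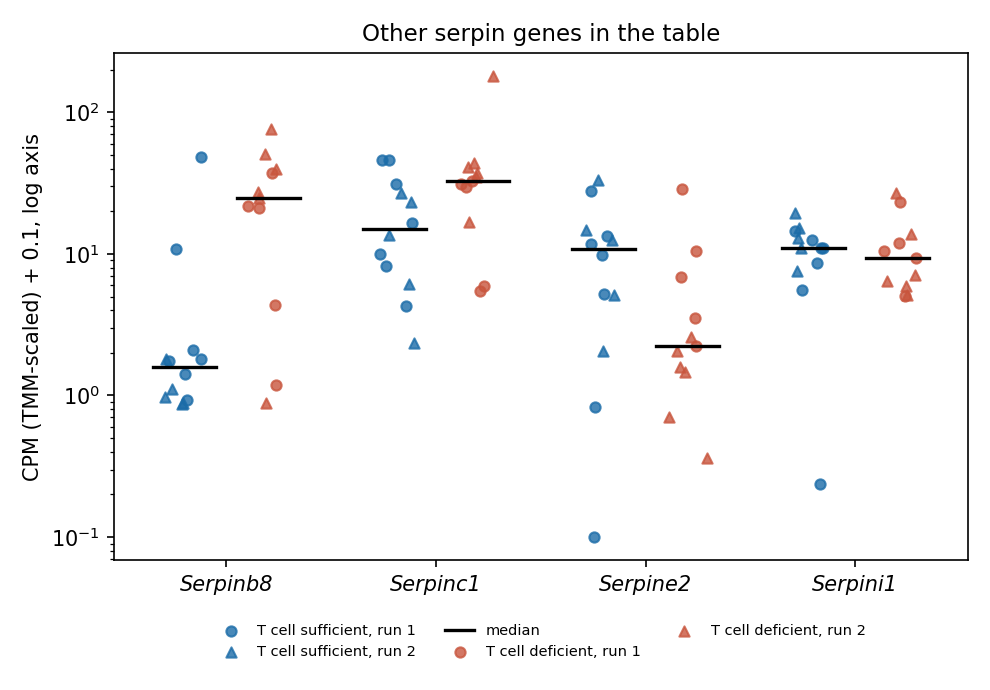
Level of the 4 other serpins (TMM-scaled CPM plus 0.1, log axis) in T cell sufficient (blue) and T cell deficient (red) lymphomas, with circles for run 1, triangles for run 2 and a bar at the group median. Serpinb8 has group medians of 1.48 and 24.6 CPM, and T cell sufficient lymphoma 5 stands at 48.4 CPM.

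Of the proteases that these inhibitors act on, granzymes were measured through few genes at low levels. Of 11 genes for granzymes and perforin 3 have a row, Gzma, Gzmb and Prf1, and 0 passed edgeR's threshold (1 at an unadjusted p under 0.05, 0 by DESeq2 and 1 by limma-voom). Gzmb, the target of Serpinb9, had a mean of 3.41 CPM ± 4.68 (SD) over the 12 sufficient lymphomas and 0.973 CPM ± 0.953 (SD) over the 11 deficient ones (edgeR adjusted p = 0.112). The summed level of the 3 genes was 0.754 to 38.6 CPM in sufficient and 0.657 to 12.0 CPM in deficient libraries. In sufficient libraries 11 and 4, which stood first and second for both granzyme inhibitors, it was 7.82 and 0.754 CPM, the latter the lowest of the 12. Whether granzyme and inhibitor levels are linked was not tested. None of 4 neutrophil serine protease genes has a row.

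Cathepsins are mostly lysosomal proteases, and cathepsin B is a known target of Serpina3g. Of 10 tested cathepsin genes 5 fell, 0 rose and 5 did not pass. Of all genes tested, 11.7% fell and 10.6% rose, the shares to set beside this and the later counts. Ctse was 3.36-fold lower (mean 99.9 CPM ± 36.8 over sufficient and 30.4 CPM ± 13.5 over deficient lymphomas, SD, edgeR adjusted p = 0.000178). Ctss was 1.73-fold and Ctsa 1.82-fold lower. The median log2 fold change of the list was -0.65. Among plasminogen activators and receptors 2 of 3 tested genes fell, the urokinase receptor gene Plaur (9.03-fold) and Plgrkt (1.54-fold). Of 8 caspases 1 rose, Casp1 (1.31-fold), and the other 7 did not pass. Of 2 complement proteases tested 1 fell, Cfb, which encodes complement factor B (2.67-fold).

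Protease inhibitors outside the serpin family were also measured. Of 9 tested genes 4 fell, 0 rose and 5 did not pass by edgeR, while DESeq2 called 3 and limma-voom 2. Cst7, an inhibitor of lysosomal cathepsins, was 9.18-fold lower from a mean of 3.70 CPM, Timp2 3.57-fold lower and Cst3, or cystatin C, 1.61-fold lower. The list's median log2 fold change was -0.69. Of 24 genes of the interferon gamma response 10 fell, 0 rose and 14 did not pass, with a median log2 fold change of -0.52. DESeq2 called 12 of these genes and limma-voom 7. Among them Cd274, which encodes the checkpoint ligand PD-L1, was 3.03-fold lower, the chemokine gene Cxcl9 7.63-fold lower and the peptide transporter gene Tap1 1.32-fold lower. Cxcl9 was low in both groups (mean 3.64 CPM ± 6.39 over sufficient and 0.394 CPM ± 0.399 over deficient lymphomas, SD).

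Few genes beside the serpin clusters could be tested. Within 500 kb of Serpinb1a, Serpinb6b and Serpinb9 the only other tested gene was Wrnip1, which was not called, and within 500 kb of the Serpina3 pair it was Dicer1, not called either. Of 7 tested neighbours of Serpinb6a 3 fell, Tubb2a, Slc22a23 and Ripk1 (log2 fold changes -1.69, -1.22 and -0.45), and 0 rose. Of 20 tested neighbours of Serpinf1, which rose, 1 was higher, Ywhae (0.25), and 5 were lower, Hic1 (-4.42), Myo1c (-0.61), Inpp5k (-0.54), Ovca2 (-0.32) and Pitpna (-0.22).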

How the data were processed

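The authors deposited raw counts per gene for 23 libraries with CPM beside them. The results of their own comparison were deposited as log2 fold changes, mean levels in log2 and raw and adjusted p-values. Each deposited CPM is the count divided by its column's total, within 0.0005. The submitters' processing notes name limma and the builds mm10 and GRCm38. Aligner, counter, annotation and strand setting remain not given in the sources used here. Every gene in the table is above 1 CPM in 7 or more libraries. The repeat library of sufficient lymphoma 1 was not analysed here on its own.

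Counts were tested with edgeR 4.0.16 (R 4.3.3): filterByExpr, which left 11020 genes, TMM scaling and a robust quasi-likelihood fit with terms for run and group, adjusted over all genes. Log2 CPM used a prior count of 2. DESeq2 1.42.0, limma-voom (limma 3.58.1), other scalings, filters and covariates, single runs and each library left out were alternatives. The code was tested on simulated counts. No 2 libraries of a group agreed within sampling noise (chi-square per degree of freedom at least 31.2). In these libraries 3 counts are worth 0.0980 to 0.396 CPM, for counting error only. Coordinates and exon lengths are from GENCODE M21, which has 1 gene for 10644 of the 11140 symbols.

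Members, gene lists and tests were chosen with earlier results of these data known. All 11 serpins are named, with up to 3 called genes of smallest p per list (or the 1 of smallest p), called neighbours within 500 kb, and the 3 genes most alike to each member whose mean log2 CPM reaches 1. Other genes, such as individual marker genes without a row, were named after their values were seen.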

Additional observations from a re-analysis of the deposited data

How the results depend on the processing

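All 7 members kept their sign under every alternative run, except Serpinb6a without 1 library. Serpinb9, Serpinb1a and Serpina3g kept their calls under all alternatives but run 1 alone, where no gene passed (adjusted p = 0.136, 0.146 and 0.19; log2 fold changes -2.74, -3.06 and -2.22). In run 1 alone the values were also -5.57 for Serpinb6b (adjusted p = 0.0953), -1.74 for Serpina3f and 2.33 for Serpinf1, so 0 members were called lower and 0 higher. In run 2 alone Serpinf1 was at 2.67 (adjusted p = 0.0756), which left 0 members called higher. With limma-voom 3 members were called lower and 0 higher, since Serpinb6b (-4.35), Serpina3f (-1.43) and Serpinf1 (1.46) did not pass. For the interaction with run, the limma-voom value of Serpinb6b had the other sign (-0.68, against 0.42 by edgeR), far from the threshold with each tool. Without the 3 libraries with both Xist and Y-linked transcripts (each at 10 CPM or more, an alternative chosen after seeing the data, as was leaving out sufficient libraries 1 and 4) Serpinf1 was at 2.28 and 0 members were called higher. Of the other serpins edgeR called 0, while DESeq2, run 2 alone and the replicate block (2.98, adjusted p = 0.0418) each called 1 higher, Serpinb8, and run 2 alone called 1 lower, Serpine2 (-3.31). Leaving out 1 library gave 0 to 1 higher. Signs turned for Serpinc1 (-0.14) and Serpine2 (0.063) in run 1, and for Serpini1 in run 2 (-0.28) and with 1 library left out (-0.14 to 0.17). For the other serpins, the alternatives besides DESeq2 and limma-voom were also chosen after seeing the data. The cause was not tested for any of these. With 1 of 23 libraries left out, the log2 fold change ran from -2.52 to -1.62 for Serpina3f and from -0.30 to 0.025 for Serpinb6a. Serpina3f has no value under the filter on a mean of at least 5 CPM, which removes it. Of 124 tested genes in the protease, inhibitor, interferon gamma response and marker lists, edgeR called 40, DESeq2 47 and limma-voom 37. Of all genes these tools called 22.2%, 28.1% and 22.8%, in the same order.

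The replicate numbers do not pair the samples: of 11 same-numbered pairs 3 had a correlation of deviations over 0.1 (range -0.422 to 0.233), and 1 sufficient library correlated best with its own number. With the replicate block, Serpina3f was at -1.76 (adjusted p = 0.0584) and Serpinf1 at 1.51 (adjusted p = 0.112), so 0 members were called higher (8.13% of all genes were), while the other 4 called members stayed called.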
